A study of Mus musculus with 12 samples.

Results

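The 8 genes described here are the red cell genes that track the change of haemoglobin in the mouse embryo: the embryonic beta-like globins Hbb-y and Hbb-bh1, the embryonic alpha-like globin Hba-x, the adult beta globins Hbb-bs and Hbb-bt, the adult alpha globins Hba-a1 and Hba-a2, and Alas2. They were taken by gene identifier from 55487 genes in the files, and all 8 passed the filter on low counts that left 16798 genes for testing. The libraries are bulk RNA-seq of dorsal cortex from mouse embryos, of which the ventricular zone, the layer of dividing progenitors along the ventricle, was cut out by laser microdissection. All groups carried the label of tamoxifen administration, given by intraperitoneal injection to start Cre recombination, and the Cre driver is not named in the sources used here. The mouse line has a ROSA26 knock-in in which a loxP-flanked stop precedes p18-P2A-mKO2, that is, the cyclin-dependent kinase inhibitor p18 joined to a fluorescent protein. The 4 groups of 3 libraries were E16.5 p18mKO2+ and E13.5 p18mKO2+, both of the genotype p18mKO2 over-expression, and E16.5 p18mKO2- and E13.5 p18mKO2-, both of the genotype normal. The study set these groups side by side to link cyclin-dependent kinase inhibitors with the change of cortical progenitors towards glia; the globin genes were not its subject.

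Globin messenger RNA is made by red cell precursors and persists in circulating red cells. In the mouse, the primitive red cells that arise in the yolk sac express the embryonic globins and enter the circulation as nucleated cells, whereas the definitive red cells that leave the fetal liver later express the adult globins. The circulating blood therefore passes from embryonic to adult globin during the second part of gestation. Haemoglobin needs heme, and Alas2 makes the enzyme of the opening step of heme synthesis in red cells.

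In the normal tissue, the 3 embryonic globin genes stood far below their E13.5 values at E16.5, by up to 414-fold for Hbb-y, while the 4 adult globin genes moved by at most 2.24-fold. The embryonic share of beta-globin counts was between 0.110 and 0.368% in all 6 E16.5 libraries, against 10.7 to 67.7% in the 6 E13.5 libraries. Among the E13.5 libraries, p18mKO2+ stood lower than p18mKO2-: Hbb-y was 3.79-fold and Hba-x 3.95-fold lower, and the embryonic share of beta-globin counts was 10.7, 11.7 and 45.9% in p18mKO2+ libraries, against 60.1, 49.7 and 67.7% in p18mKO2- libraries. At E16.5 no member was called between p18mKO2+ and p18mKO2-.

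Library depth was 17101971 to 21837088 estimated counts. The 7 globins together made up 0.353 to 0.84% of the TPM (a level scaled by gene length and by the total of the library) of a library. In bulk tissue, fewer red cells and less globin RNA per red cell cannot be told apart. The labels do not say that the 3 libraries of a group are separate embryos or litters, so a p-value here speaks of the scatter among these libraries, part of which may be technical. Cdkn2c, which encodes p18, stood at 38.2, 43.6 and 32.1 TPM in E16.5 p18mKO2+ libraries, against 19.6, 28.7 and 13.7 TPM in E16.5 p18mKO2- libraries. At E13.5 it stood at 27.7, 32.6 and 30.2 TPM in p18mKO2+ libraries, against 26.5, 21.4 and 16.1 TPM in p18mKO2- libraries. The groups did not overlap at either stage. Replicate 3 of E16.5 p18mKO2+ and replicate 3 of E13.5 p18mKO2+ stood apart in holding at least 50 CPM (counts scaled to the library size) of both the female transcript Xist (657 and 1337 CPM) and Y-linked transcripts (81.8 and 95.4 CPM). All 3 E13.5 p18mKO2- libraries had Xist at 1918 CPM or more and at most 0.42 CPM of Y-linked transcripts. E13.5 p18mKO2+ replicate 2 had 3.59 CPM of Xist and 179.8 CPM of Y-linked transcripts. E16.5 p18mKO2- replicates 1 and 3 had 1537 and 1366 CPM of Xist and at most 0.21 CPM of Y-linked transcripts. E16.5 p18mKO2- replicate 2 and E16.5 p18mKO2+ replicates 1 and 2 had 161.8, 142.4 and 195.7 CPM of Y-linked transcripts. In these 3 libraries Xist was at most 10.3 CPM. Sex was thus not balanced at E13.5 or at E16.5. The main results that rest on the 2 libraries with both kinds of transcript are given below with and without them.

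The beta-like genes lie together on chromosome 7 of GRCm38, all on the minus strand: Hbb-y at chr7:103851749-103853216, Hbb-bh1 at chr7:103841637-103843164, Hbb-bs at chr7:103826534-103828096 and Hbb-bt at chr7:103812524-103813996. The alpha-like genes lie together on the plus strand of chromosome 11: Hba-x at chr11:32276400-32278116, Hba-a1 at chr11:32283511-32284465 and Hba-a2 at chr11:32296489-32297298. Alas2 is apart from both clusters, on the plus strand at chrX:150547375-150570638. All 8 are protein-coding genes, and in both clusters the embryonic gene or genes come before the adult ones in the direction of transcription.

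Members of each cluster moved in opposite or unequal ways between the stages, so the 150 bases before the RefSeq start of the genes are shown for 2 embryonic and 3 adult globins, from the RefSeq promoter table of GRCm38.p6, in which 7 of the 8 genes have an entry. The RefSeq starts of these 5 genes lie 9 to 200 bases inside the GENCODE spans given above, so the windows lie partly or wholly within those spans. They are written 5′ to 3′ on the strand of the gene, and capitals mark matches on either strand to the motifs spelled out after them, of which the TATAA was added after the sequences had been read.
Hbb-y (chr7:103853208-103853357): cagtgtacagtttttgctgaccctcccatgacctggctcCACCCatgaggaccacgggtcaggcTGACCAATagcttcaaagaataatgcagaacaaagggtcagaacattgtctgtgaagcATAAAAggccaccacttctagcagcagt
Hba-x (chr11:32276450-32276599): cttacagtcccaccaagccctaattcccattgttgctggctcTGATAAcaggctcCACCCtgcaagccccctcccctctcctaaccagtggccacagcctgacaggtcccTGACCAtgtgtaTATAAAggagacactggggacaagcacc
Hbb-bs (chr7:103827929-103828078): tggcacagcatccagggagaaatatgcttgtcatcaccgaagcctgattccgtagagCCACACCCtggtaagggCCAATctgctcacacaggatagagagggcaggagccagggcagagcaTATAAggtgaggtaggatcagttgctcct
Hbb-bt (chr7:103813924-103814073): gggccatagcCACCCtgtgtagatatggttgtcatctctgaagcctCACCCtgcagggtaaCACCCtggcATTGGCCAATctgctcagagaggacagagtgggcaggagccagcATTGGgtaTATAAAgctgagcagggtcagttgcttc
Hba-a1 (chr11:32283522-32283671): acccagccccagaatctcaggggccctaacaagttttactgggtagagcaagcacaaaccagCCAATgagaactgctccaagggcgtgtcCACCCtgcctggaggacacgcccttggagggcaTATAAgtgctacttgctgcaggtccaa
CACCC, the letters bound by Krüppel-like factors such as Klf1, was found in all 7 members with an entry and in 37.43% of the 32851 promoters of the table over the same window. CCAAT was found in 5 members, the 4 adult globins and Hbb-y, and in 24.5% of all promoters; Hba-x had no match, and 2 of the 3 matches in Hbb-bt are on the opposite strand (ATTGG). In Hbb-y the CCAAT at -83 to -79 overlaps a TGACCA at -86 to -81, and TGACCA was otherwise found in Hba-x and in 6.99% of all promoters. The longer CCACACCC, which contains CACCC, was found in Hbb-bs (-93 to -86) and in 2.18% of all promoters, while Hbb-bt held 3 separate CACCC matches. The letters TGATAA, which hold GATA, were found in Hba-x and in 4.45% of all promoters, and AGATAA in Alas2 and in 5.65%. TATAA was found in the 4 adult globins and Hba-x and in 14.15% of all promoters; the longer TATAAA, which contains it, was found in Hba-x and Hbb-bt and in 7.57%. ATAAAA was found in Hbb-y (-28 to -23) and Alas2 and in 10.14%.

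The adult pairs are near copies, which bears on every count below. Over 147 aligned bases, the promoter windows of Hba-a1 and Hba-a2 did not differ, and their coding sequences differed at 1 of 429 bases. The coding sequences of Hbb-bs and Hbb-bt likewise differed at 1 of 444 bases, but their promoter windows were identical at 71.1% of 149 bases. Reads within the coding part can thus come from either gene of a pair, and the authors' software shared them out by estimate: the deposited posterior SD of the count was 1.03 to 1.93% of the count for Hba-a1, 0.801 to 1.68% for Hba-a2, 0.207 to 0.794% for Hbb-bs and 1.01 to 1.64% for Hbb-bt. By that measure the estimate was tight. The split within a pair still rests on the estimate alone and was not checked in another way, and sums are given beside it. The embryonic genes are distinct: Hbb-y had 74.3% identity with Hbb-bs and 76.4% with Hbb-bh1 over 444 coding bases, Hba-x had 62.0% with Hba-a1 over 429, and the posterior SD of Hbb-y, Hbb-bh1 and Hba-x was 0 in every library.

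Hbb-y encodes the main embryonic beta-like chain of primitive red cells and had the highest level of the embryonic genes. Its level was 3.99, 9.11 and 4.91 TPM in E16.5 p18mKO2+ libraries and 8.59, 2.88 and 2.14 TPM in E16.5 p18mKO2- libraries. It was 354, 225 and 1123 TPM in E13.5 p18mKO2+ libraries and 1863, 1804 and 1809.8 TPM in E13.5 p18mKO2- libraries. The E13.5 p18mKO2- libraries lay close together (1825 ± 32.7 TPM, SD, n = 3), the E13.5 p18mKO2+ libraries were all lower and widely spread (567 ± 485 TPM, SD, n = 3), and replicate 3 stood nearest to p18mKO2-. No E16.5 library reached an E13.5 value. In counts, the E16.5 libraries held 13 to 44 Hbb-y reads each, against 1375 to 10403 in E13.5 libraries.

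Hbb-bh1 encodes the other embryonic beta-like chain, which in the mouse is made early in primitive red cells. It had 0, 3 and 0 counts in E16.5 p18mKO2+ libraries and 0, 5 and 0 counts in E16.5 p18mKO2- libraries. It had 0, 24 and 113 counts in E13.5 p18mKO2+ libraries and 157, 127 and 104 counts in E13.5 p18mKO2- libraries. In E13.5 p18mKO2- its level was 24.7 ± 4.54 TPM (SD, n = 3), and among E13.5 p18mKO2+ libraries it ran between 0 and 20.5 TPM, with replicate 1 at 0 although Hbb-y stood at 354 TPM there. A count of 0 allows up to 3 counts per library. Summed over libraries, 5 counts at E16.5 against 388 at E13.5 in p18mKO2- is 82.9-fold lower after scaling for depth (95% counting interval 35.2 to 257), and 3 counts at E16.5 against 137 at E13.5 in p18mKO2+ is 42.7-fold lower (14.3 to 210). These intervals cover counting error only.

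Hba-x encodes the embryonic alpha-like chain, zeta globin, the partner of the embryonic beta-like chains. Its level was 2.77, 6.52 and 7.7 TPM in E16.5 p18mKO2+ libraries and 5.5, 5.87 and 2.52 TPM in E16.5 p18mKO2- libraries. It was 71.0, 52.4 and 221 TPM in E13.5 p18mKO2+ libraries and 422, 355 and 399 TPM in E13.5 p18mKO2- libraries. The libraries stood much as for Hbb-y: all 6 E16.5 libraries lowest, the E13.5 p18mKO2+ libraries between, with replicate 3 highest among them, and E13.5 p18mKO2- on top without overlap. The ratio of Hbb-y to Hba-x in TPM was 4.29 to 5.08 in all 6 E13.5 libraries, although Hbb-y itself varied between 225 and 1863 TPM among them. At E16.5 the ratio was 0.491 to 1.56, with 18 to 59 Hba-x counts per library.

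**Figure D1:**
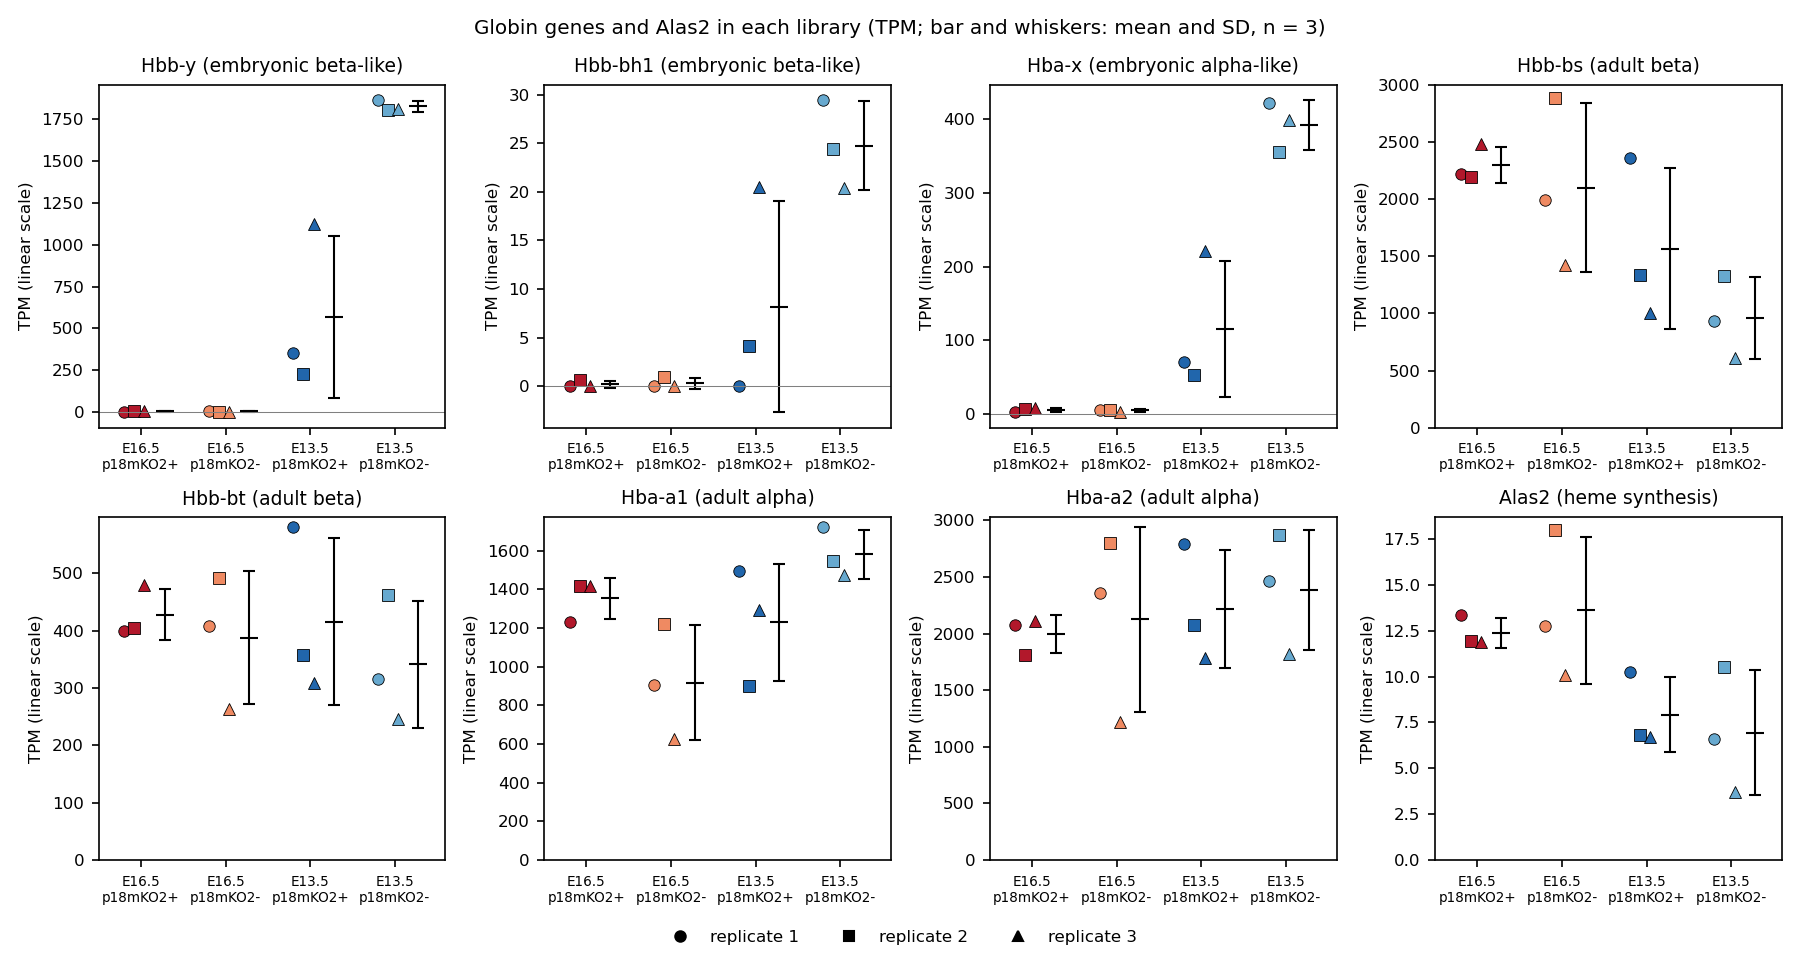
Deposited level of each of the 8 genes (vertical axes, TPM, linear, with a separate scale for each gene) in the 12 libraries; points are libraries, marker shapes replicate numbers, and the bar with whiskers the mean and SD of 3 libraries. Hbb-y and Hba-x are close to 0 in the 6 E16.5 libraries and lower in the 3 E13.5 p18mKO2+ libraries than in any E13.5 p18mKO2- library, whereas the lowest adult globin value is 246 TPM.

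Hbb-bs, the adult beta globin with the higher level, stood at 2225, 2199 and 2486 TPM in E16.5 p18mKO2+ libraries and at 1997, 2891 and 1422 TPM in E16.5 p18mKO2- libraries. It stood at 2359, 1335 and 1007 TPM in E13.5 p18mKO2+ libraries and at 930.2, 1330.0 and 612 TPM in E13.5 p18mKO2- libraries. In normal tissue every E16.5 library was above every E13.5 library, and the 2 p18mKO2+ groups overlapped through E13.5 replicate 1. Hbb-bt, its neighbour, averaged 428 ± 44.8 TPM in E16.5 p18mKO2+, 387 ± 116 TPM in E16.5 p18mKO2-, 416 ± 145 TPM in E13.5 p18mKO2+ and 341 ± 110.4 TPM in E13.5 p18mKO2- (SD, n = 3 each), and all groups overlapped.

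Hba-a1 stood at 1232, 1417 and 1415 TPM in E16.5 p18mKO2+ libraries and at 906, 1219 and 626 TPM in E16.5 p18mKO2- libraries. It stood at 1495, 898 and 1292 TPM in E13.5 p18mKO2+ libraries and at 1720.4, 1547 and 1476 TPM in E13.5 p18mKO2- libraries. In normal tissue every E16.5 library was below every E13.5 library. Hba-a2, the other adult alpha gene, averaged 1998 ± 166 TPM in E16.5 p18mKO2+, 2128 ± 817 TPM in E16.5 p18mKO2-, 2217 ± 521 TPM in E13.5 p18mKO2+ and 2388 ± 529 TPM in E13.5 p18mKO2- (SD, n = 3 each), and all groups overlapped. The lowest value of any of the 4 adult genes was 246 TPM, of Hbb-bt in E13.5 p18mKO2-, and summed alpha over summed beta globin in TPM was 1.1 to 1.57 in all 12 libraries.

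Alas2 stood at 13.35, 11.96 and 11.89 TPM in E16.5 p18mKO2+ libraries and at 12.78, 18 and 10.09 TPM in E16.5 p18mKO2- libraries. It stood at 10.3, 6.79 and 6.73 TPM in E13.5 p18mKO2+ libraries and at 6.58, 10.5 and 3.72 TPM in E13.5 p18mKO2- libraries. In TPM, every E16.5 p18mKO2+ library was above every E13.5 p18mKO2+ library, while the p18mKO2- stages overlapped. In CPM the p18mKO2+ stages overlapped as well, with E16.5 replicate 3 at 11.2 CPM and E13.5 replicate 1 at 11.3 CPM. Set against the adult beta globins, Alas2 was 0.35 to 0.599% of their summed TPM in all 12 libraries.

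The change with stage was tested on the estimated counts with edgeR's quasi-likelihood test over all genes, and the threshold for a call was a p under 0.05 after Benjamini-Hochberg adjustment. In p18mKO2-, 4 of the 8 members were called lower at E16.5, where 13.4% of all genes tested were called lower, and 1 was called higher, where 16.4% were. Hbb-y changed by -8.69 on the log2 scale (SE 0.64, edgeR adjusted p = 8.85e-07), and Hba-x by -6.48 (SE 0.53, edgeR adjusted p = 2.07e-06), 89.3-fold lower. Hbb-bh1 was called as well (edgeR adjusted p = 0.00608), with its size best given by the counting interval above. Hba-a1 fell by 0.78 (SE 0.20, edgeR adjusted p = 0.00812), 1.72-fold lower, and Hbb-bs rose by 1.16 (SE 0.32, edgeR adjusted p = 0.0139). The median log2 change of all genes tested was -0.02. Hbb-bs was no longer called without E16.5 p18mKO2- replicate 2 (0.93, edgeR adjusted p = 0.0646) or without E13.5 p18mKO2- replicate 3 (0.94, edgeR adjusted p = 0.0582). Hbb-bt at 0.19 ± 0.26, Hba-a2 at -0.17 ± 0.24 and Alas2 at 0.82 ± 0.42 (log2, SE) were not called, and Alas2 was called without E16.5 p18mKO2- replicate 3 (1.14, edgeR adjusted p = 0.0464), without E13.5 p18mKO2- replicate 2 (1.31, edgeR adjusted p = 0.0436) and with no filter on low counts (0.85, edgeR adjusted p = 0.0449).

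With the counts of each adult pair added before the fit, an alternative chosen after seeing the data, Hbb-bs + Hbb-bt rose by 0.94 in p18mKO2- (SE 0.31, edgeR adjusted p = 0.0329). Hba-a1 + Hba-a2 was not called, at -0.43 ± 0.21 (log2, SE, edgeR adjusted p = 0.143), so the call of Hba-a1 did not extend to the pair. No other comparison called either sum.

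In p18mKO2+, 2 of the 8 members were called, both lower at E16.5, where 1.64% of all genes tested were called and 0.554% were called lower. Hbb-y changed by -6.56 (log2, SE 0.59, edgeR adjusted p = 0.000243), 94.2-fold lower. Hba-x changed by -4.39 (log2, SE 0.49, edgeR adjusted p = 0.00122), 20.9-fold lower. Without the 2 libraries that held both Xist and Y-linked transcripts, an alternative chosen after seeing the data, Hbb-y stood at -5.58 and Hba-x at -3.87 (edgeR adjusted p = 0.000618 for each). Of the adult globins, Hbb-bs at 0.54 ± 0.32, Hbb-bt at 0.01 ± 0.26, Hba-a1 at 0.13 ± 0.19 and Hba-a2 at -0.16 ± 0.24 (log2, SE) were not called, nor was Alas2 at 0.50 ± 0.42. Hbb-bh1 was not called either (edgeR adjusted p = 0.11), but it was with no filter on low counts and without E13.5 p18mKO2+ replicate 1, the E13.5 library with 0 counts of it.

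Between p18mKO2+ and p18mKO2- at E13.5, 2 of the 8 members were called, both lower in p18mKO2+, where 10.8% of all genes tested were called and 3.49% were called lower. Hbb-y fell by 1.92 (log2, SE 0.45, edgeR adjusted p = 0.0147), and Hba-x fell by 1.98 (log2, SE 0.41, edgeR adjusted p = 0.00817). Hbb-y, Hba-x, Hbb-bh1 and Hba-a1 had groups that did not overlap in CPM with p18mKO2+ lower, 4 of 8 members against 14.1% of all genes tested. In TPM, Hbb-bh1 and Hba-a1 overlapped. Hbb-bh1 was not called (-1.83 ± 1.11, log2, SE; edgeR adjusted p = 0.335), nor was Hba-a1 (-0.54 ± 0.20; edgeR adjusted p = 0.0949). Hba-a1 was called with DESeq2 (DESeq2 adjusted p = 0.038), with no filter (edgeR adjusted p = 0.0394) and without E16.5 p18mKO2- replicate 3 (edgeR adjusted p = 0.0494). Hbb-bs at 0.54 ± 0.32, Hbb-bt at 0.11 ± 0.26, Hba-a2 at -0.30 ± 0.24 and Alas2 at 0.02 ± 0.42 were not called either.

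The size of this difference depended on which E13.5 p18mKO2+ libraries were used. Without replicate 3, which held transcripts of both sexes, Hbb-y stood at -2.82 (log2, edgeR adjusted p = 0.000379) and Hba-x at -2.81 (log2, edgeR adjusted p = 0.000186). Without replicate 1, Hbb-y stood at -1.69 and was no longer called (edgeR adjusted p = 0.0716), while Hba-x at -1.74 was (edgeR adjusted p = 0.0429). Both genes were lower in 3 of 3 p18mKO2+ libraries than in any p18mKO2- library. All 3 p18mKO2- libraries were of the Xist-high kind. Among p18mKO2+ libraries, replicate 1 was of the same kind, and Hbb-y stood at 354 TPM there, against 1804 to 1863 TPM in p18mKO2- libraries. The litters and exact ages of the embryos are not given in the labels. The part of litter, age and sex in the difference was not tested, and replicate 1 of p18mKO2+ is only 1 library.

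At E16.5 no member was called between p18mKO2+ and p18mKO2-, and edgeR called 0% of all genes tested there, although 426 genes had an unadjusted p under 0.05 and DESeq2 called 16. Hbb-y at 0.21 ± 0.67, Hba-x at 0.11 ± 0.54, Hbb-bs at -0.08 ± 0.32, Hbb-bt at -0.07 ± 0.26, Hba-a1 at 0.37 ± 0.20, Hba-a2 at -0.29 ± 0.24 and Alas2 at -0.30 ± 0.41 (log2, SE) had p18mKO2+ and p18mKO2- values that overlapped in CPM. In TPM, Hba-a1 alone did not overlap, at 1232 to 1417 in p18mKO2+ against 626 to 1219 in p18mKO2-. No share of all genes was set beside this separation, so it is a description only. Hbb-y and Hba-x rested on 13 to 59 counts per library there, and their SE was wider than that of the adult genes.

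The difference of the stage change between p18mKO2+ and p18mKO2- was tested as an interaction, which called none of the members and 2.7% of all genes tested. Hbb-y at 2.13 ± 0.80 (log2, SE; edgeR adjusted p = 0.187), Hba-x at 2.09 ± 0.67 (edgeR adjusted p = 0.121) and Hba-a1 at 0.91 ± 0.28 (edgeR adjusted p = 0.102) had unadjusted edgeR p-values of 0.018, 0.00785 and 0.00553 in that order. Without E13.5 p18mKO2+ replicate 3, Hbb-y was called at 3.03 (edgeR adjusted p = 0.00957) and Hba-x at 2.92 (edgeR adjusted p = 0.00394). Without any filter on low counts all 3 genes were called, and with DESeq2 Hba-a1 alone was (DESeq2 adjusted p = 0.0195).

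**Figure D2:**
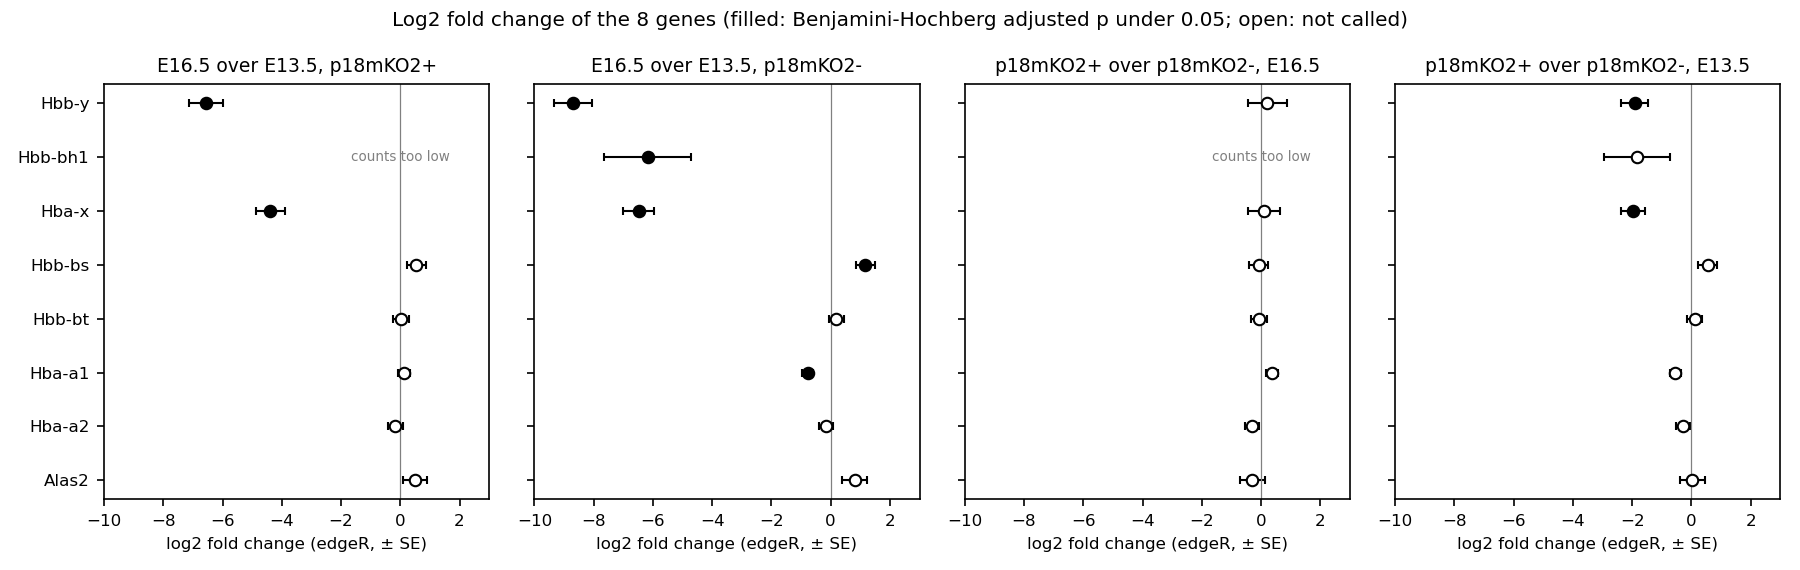
Log2 fold change (horizontal axes, edgeR fit, whiskers SE) of the 8 genes in the 4 comparisons. Filled points passed 0.05 after Benjamini-Hochberg adjustment and open points did not. Hbb-bh1 is not drawn for stage in p18mKO2+ and for p18mKO2+ against p18mKO2- at E16.5, for its low counts. The embryonic genes drawn lie far to the left in both stage comparisons, Hbb-y and Hba-x lie near -2 in p18mKO2+ against p18mKO2- at E13.5, and all points lie near 0 in that comparison at E16.5.

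The embryonic genes were also set against the adult genes of their own cluster in each library, as the log2 ratio of counts with 0.5 added to both. This ratio does not depend on library size. For the beta cluster, Hbb-y + Hbb-bh1 made up 0.151, 0.368 and 0.163% of the counts in E16.5 p18mKO2+ libraries and 0.352, 0.110 and 0.126% in E16.5 p18mKO2- libraries. They made up 10.7, 11.7 and 45.9% in E13.5 p18mKO2+ libraries and 60.1, 49.7 and 67.7% in E13.5 p18mKO2- libraries. The 95% Wilson intervals of the E16.5 libraries lay between 0.0722 and 0.489%, and E13.5 p18mKO2+ replicate 3 (45.0 to 46.7%) lay closer to the lowest p18mKO2- library (49.0 to 50.4%) than to its own group. All E16.5 values lay below all E13.5 values, and at E13.5 the p18 groups did not overlap.

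For the alpha cluster, Hba-x made up 0.121, 0.286 and 0.277% of the counts in E16.5 p18mKO2+ libraries and 0.252, 0.190 and 0.203% in E16.5 p18mKO2- libraries. It made up 2.41, 2.56 and 9.46% in E13.5 p18mKO2+ libraries and 12.7, 10.6 and 14.6% in E13.5 p18mKO2- libraries. The beta shares of the same E13.5 p18mKO2- libraries were 60.1, 49.7 and 67.7%. The alpha and beta shares thus cannot both stand for the fraction of primitive red cells, which was not measured. The 6 E13.5 libraries stood in the same order as in the beta cluster, with p18mKO2+ replicate 1 lowest and p18mKO2- replicate 3 highest.

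**Figure D3:**
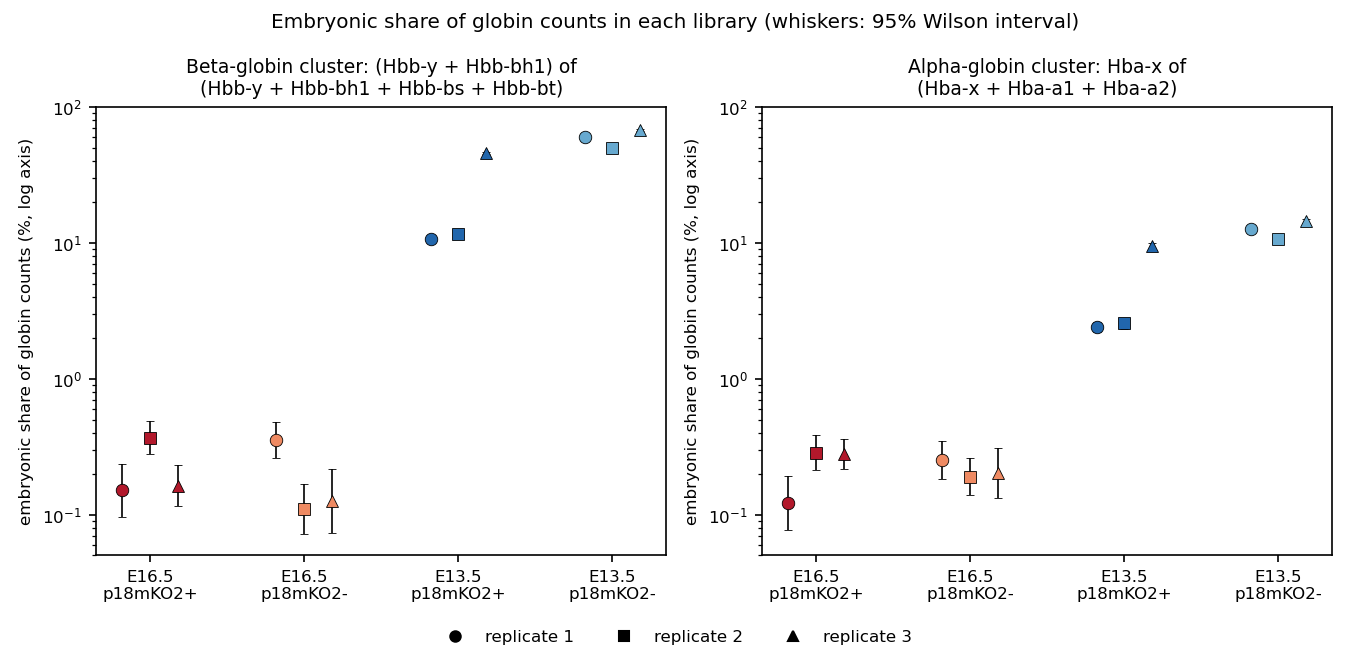
Share of globin counts from the embryonic genes (vertical axes, percent, log axis) in each library for the beta cluster (left) and the alpha cluster (right); whiskers are 95% Wilson intervals, which cover counting error only. The 6 E16.5 libraries lie between 0.110 and 0.368%, and at E13.5 p18mKO2+ lies below p18mKO2- in both clusters, with p18mKO2+ replicate 3 close to p18mKO2-.

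The log2 ratio was tested by exact two-sided permutation over libraries, with stage labels exchanged within each p18 status or p18 labels exchanged within each stage, which gives 400 arrangements and a smallest possible p of 0.005. The beta ratio was 8.26 log2 units lower at E16.5 (-8.26), a 306-fold change (exact permutation p = 0.005, adjusted p = 0.01 over the 4 ratio tests), and all 6 E16.5 libraries were below all E13.5 libraries. The alpha ratio changed by -5.14, a 35.3-fold change (exact permutation p = 0.005, adjusted p = 0.01). Without the 2 libraries with Xist and Y-linked transcripts the changes were -7.71 and -4.90 (exact permutation, adjusted p = 0.0333 for each). These values average unequal changes: the beta ratio was 112-fold lower at E16.5 in p18mKO2+ and 839-fold lower in p18mKO2-, and the alpha ratio 18.9-fold lower in p18mKO2+ and 66.0-fold lower in p18mKO2- (exact permutation p = 0.1 for each, the smallest that 3 libraries against 3 allow). Without the 2 libraries, the ratios in p18mKO2+ were 52.2-fold lower at E16.5 for beta and 13.4-fold lower for alpha.

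For p18mKO2+ minus p18mKO2- over both stages, the beta ratio differed by -1.17 (exact permutation p = 0.195, adjusted p = 0.195) and the alpha ratio by -0.91 (exact permutation p = 0.12, adjusted p = 0.16), which did not pass. Without the 2 libraries with Xist and Y-linked transcripts they were -1.54 (exact permutation p = 0.15, adjusted p = 0.15) and -1.34 (exact permutation p = 0.04, adjusted p = 0.0533). At E13.5 alone the beta ratio was 6.16-fold lower in p18mKO2+ (-2.62, exact permutation p = 0.1) and the alpha ratio 3.52-fold lower (-1.81, exact permutation p = 0.1), and 3 libraries against 3 cannot give a smaller p. Without p18mKO2+ replicate 3 the differences at E13.5 were larger, 11.6-fold for beta (-3.54) and 5.63-fold for alpha (-2.49), with the same exact permutation p of 0.1, the smallest that 2 libraries against 3 allow. At E16.5 alone the differences were 0.28 for beta (exact permutation p = 0.5) and -0.01 for alpha (exact permutation p = 1), and without p18mKO2+ replicate 3 they were 0.46 and -0.19 (exact permutation p = 0.5 and 0.8). With Hba-a1 alone as the adult alpha gene, the alpha difference over both stages was -1.02 and passed (exact permutation p = 0.03, adjusted p = 0.04). That value rests on the estimated split of reads between Hba-a1 and Hba-a2, which differed between the p18 groups at E16.5.

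Placed on a line between the mean log2 ratios of E13.5 p18mKO2- (0%) and E16.5 p18mKO2- (100%), E13.5 p18mKO2+ replicates 1, 2 and 3 stood at 37.2, 35.7 and 8.11% of the way for the beta cluster. For the alpha cluster they stood at 42.0, 40.5 and 7.57%. These positions depend on the log scale and on an E16.5 p18mKO2- end with 13 to 40 embryonic beta counts per library. On the linear scale, the beta shares of these replicates were 10.7, 11.7 and 45.9%. The mean beta share was 59.2% in E13.5 p18mKO2- and 0.196% in E16.5 p18mKO2-, so replicates 1 and 2 lay nearer the E16.5 end there. The E13.5 p18mKO2- libraries themselves spanned -5.37 to 5.83% (beta) and -4.11 to 4.48% (alpha), and the E16.5 p18mKO2+ libraries 88.7 to 101.8% (beta) and 93.1 to 113% (alpha). The clusters share libraries and read depth but no gene, and both set E13.5 p18mKO2+ replicates 1 and 2 apart from replicate 3.

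Within the adult beta pair, the ratio of Hbb-bs to Hbb-bt counts was 4.76, 4.65 and 4.44 in E16.5 p18mKO2+ libraries, against 3.41, 3.18 and 2.77 in E13.5 p18mKO2+ libraries. It was 4.18, 5.01 and 4.58 in E16.5 p18mKO2- libraries, against 2.44, 2.46 and 2.06 in E13.5 p18mKO2- libraries. All E16.5 values lay above all E13.5 values, and at E13.5 the p18mKO2+ values lay above the p18mKO2- values, the reverse of the order of the embryonic share, with replicate 3 of p18mKO2+ again nearest to p18mKO2-. This ratio was looked at after the values were seen and is a description without a test, and it rests on the estimated split of reads between near-identical genes. The ratio of Hba-a2 to Hba-a1 counts had no such order by stage, at 0.932 to 1.92 over the E16.5 libraries and 0.915 to 1.68 over the E13.5 libraries. At E16.5 it was 1.23, 0.932 and 1.08 in p18mKO2+ libraries, below 1.92, 1.68 and 1.46 in p18mKO2- libraries, while the p18 groups overlapped at E13.5. It rests on an estimated split of reads in the same way and was not tested.

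**Figure D4:**
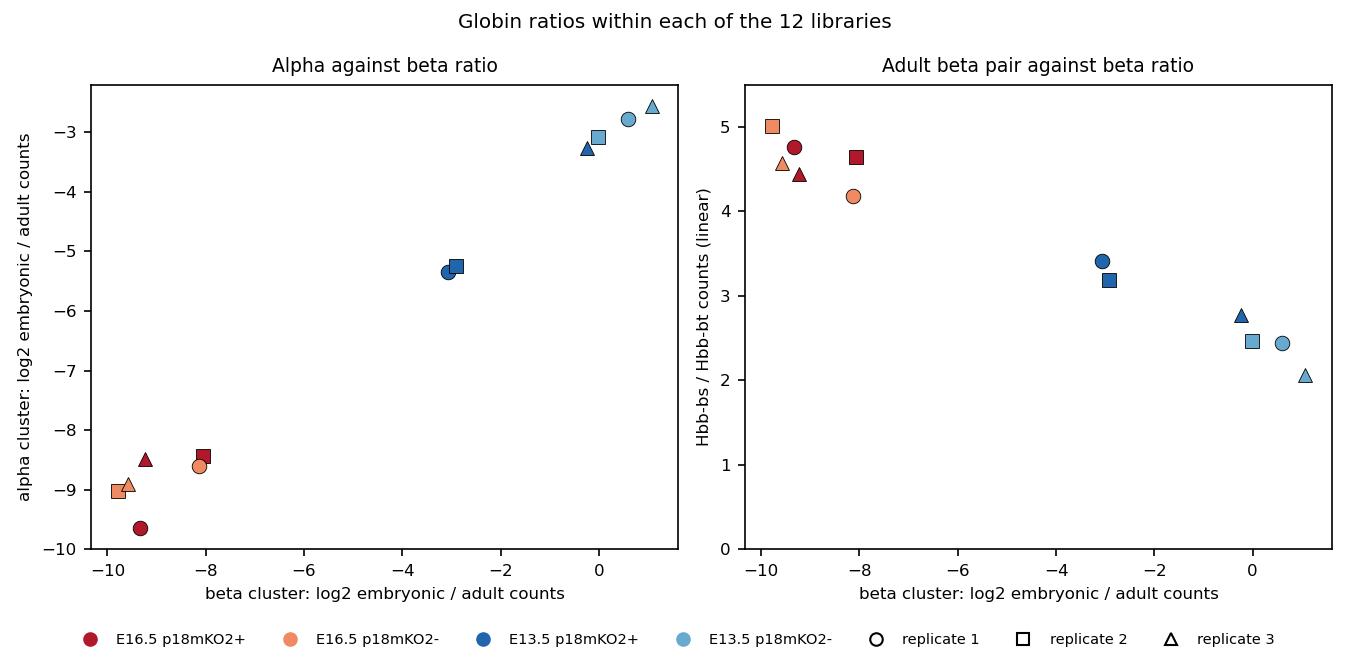
Each point is 1 of the 12 libraries, placed by the beta cluster's log2 ratio of embryonic to adult counts (horizontal axes) against the same ratio of the alpha cluster (left) and against the linear ratio of Hbb-bs to Hbb-bt counts (right). The 6 E16.5 libraries form 1 cloud at beta ratios under -8, and the E13.5 p18mKO2+ replicates 1 and 2 lie between it and the E13.5 p18mKO2- libraries.

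Of the other red cell genes, some were near 0 in this tissue and others passed the filter on low counts. Those named next were picked after their values were seen. The erythroid transcription factor genes Gata1 and Klf1, which drive globin transcription in red cell precursors, had at most 4 and at most 14 counts per library, Hemgn and Rhag at most 3 and 12, and Car1 had 0 in all 12. Of the erythroid transcription factor list, 3 of 7 genes passed the filter (Lmo2, Tal1 and Zfpm1, which other cells express as well) and none was called with stage in p18mKO2-. Of the red cell cytoplasm list, 6 of 8 passed and none was called. The summed TPM of that list was 153 to 227 in E16.5 p18mKO2-, against 168 to 176 in E13.5 p18mKO2-. Of 12 red cell membrane genes 7 passed, of which 2 were called higher and 2 lower at E16.5 in p18mKO2-. Of all genes tested, 16.4% were called higher and 13.4% lower there. Slc4a1, the anion exchanger band 3, changed by -1.60 (log2, SE 0.38, edgeR adjusted p = 0.00587), and Gypc, a glycophorin, by -1.23 (SE 0.34, edgeR adjusted p = 0.0151). The skeleton genes Ank1 and Sptb, which neurons also express, changed by 2.35 (SE 0.36, edgeR adjusted p = 0.000249) and 1.39 (SE 0.31, edgeR adjusted p = 0.00354). The summed TPM of the membrane list was 11.7 to 20.4 in E16.5 p18mKO2-, against 15.0 to 25.8 in E13.5 p18mKO2-.

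Of the 11 heme and iron genes, a list that includes Alas2, 4 were called lower and 0 higher at E16.5 in p18mKO2-, where 13.4% and 16.4% of all genes tested were, with a list median of -0.11 against -0.02 over all genes. Among them were Slc25a37 (mitoferrin, the mitochondrial iron importer; -1.47, SE 0.16, edgeR adjusted p = 1.9e-05), Tfrc (the transferrin receptor; -0.75, SE 0.16) and Ppox (-0.55, SE 0.16). These 3 genes also act outside red cells, unlike Alas2. In p18mKO2+ against p18mKO2- at E13.5, Slc25a37 alone of the list was called, at -0.89 (SE 0.16, edgeR adjusted p = 0.00308). Its level was 7.44 to 7.66 TPM in E13.5 p18mKO2+, against 11.2 to 14.0 TPM in E13.5 p18mKO2-.

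Of 13 genes known to act on globin switching or fetal programmes in blood cells, 12 were tested, and in p18mKO2- 2 were called higher and 4 lower at E16.5, where 16.4% and 13.4% of all genes tested were. The count of higher calls was near that share. These genes are also expressed in cortical cells, and the levels here cannot be assigned to red cells. Bcl11a, the repressor of embryonic and fetal globin genes, rose by 0.96 (log2, SE 0.14, edgeR adjusted p = 0.000133), to 215 to 268 TPM at E16.5 against 109 to 137 TPM at E13.5. Myb, a factor of definitive red cell precursors, changed by -1.71 (SE 0.22), Igf2bp1 by -1.46 (SE 0.18) and Igf2bp2, like Igf2bp1 an RNA-binding protein of fetal cells, by -1.34 (SE 0.15). At E13.5 in p18mKO2+ against p18mKO2-, 1 was called higher and 1 lower, against 7.29% and 3.49% of all genes tested: Bcl11a at 0.54 (SE 0.13, edgeR adjusted p = 0.0197) and Igf2bp2 at -0.69 (SE 0.15, edgeR adjusted p = 0.0115).

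Of the other globin genes in the files, Hbb-bh2, Hba-ps3, Hba-ps4 and the muscle gene Mb had 0 counts in every library. Hbb-bh0 had 3 counts in 1 library, Hbq1a at most 9, Hbq1b at most 6, and the neuronal globin Ngb at most 15. Cygb, cytoglobin, which is expressed outside red cells, was the only gene of the 9 to pass the filter, and it rose with stage in p18mKO2- by 1.06 (log2, SE 0.25, edgeR adjusted p = 0.00531) and was higher in p18mKO2+ at E13.5 by 0.95 (SE 0.25, edgeR adjusted p = 0.0255).

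Markers of other cells moved between the same groups, and their counts stand against 16.4% of all genes tested called higher and 13.4% called lower at E16.5 in p18mKO2-, and 7.29% higher and 3.49% lower in p18mKO2+ at E13.5. The 6 neuron genes were all called higher at E16.5 in p18mKO2-, and 4 of 6 were called higher in p18mKO2+ at E13.5. Their summed TPM was 2405 to 2912 in E13.5 p18mKO2+ libraries, against 1086 to 1338 in E13.5 p18mKO2- libraries. Of 10 ventricular zone genes, 7 were called lower and 1 higher at E16.5 in p18mKO2-, and 4 lower in p18mKO2+ at E13.5. Of 12 endothelial genes, which mark the vessels that carry the blood, 1 rose and 2 fell at E16.5 in p18mKO2-, and 1 rose and 1 fell in p18mKO2+ at E13.5; these counts are near the shares over all genes. Their summed TPM was 109 to 145 in E16.5 p18mKO2- libraries, against 150 to 161 in E13.5 p18mKO2- libraries, without overlap. In p18mKO2+ libraries it was 150 to 179 at E16.5 and 148 to 151 at E13.5, where it overlapped with p18mKO2-. The genes called lower with stage in p18mKO2- were Plvap and Slc2a1, the latter at 28.6 to 35.6 TPM at E16.5 against 47.7 to 54.8 TPM at E13.5. Cldn5 was called higher, at 26.0 to 34.5 TPM against 9.92 to 12.2 TPM, and the rest of the list was not called. Of 6 pericyte genes 4 rose and 1 fell with stage in p18mKO2-, of 11 microglia and macrophage genes 2 rose, and of 2 platelet genes that passed the filter none was called. The part of these cells in the globin values was not tested.

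The genes whose log2 CPM over the 12 libraries was most like that of Hbb-y, members and unnamed genes left out, were Dll1 (a Notch ligand, Pearson r = 0.981), Robo3 (an axon guidance receptor, 0.979), Mtfr2 (0.975), Myb (0.974) and Cntfr (a cytokine receptor subunit, 0.971). Dll1 averaged 24.5 TPM in E16.5 p18mKO2+, 19.2 TPM in E16.5 p18mKO2-, 55.5 TPM in E13.5 p18mKO2+ and 96.6 TPM in E13.5 p18mKO2-, the same order of the E13.5 groups as Hbb-y. Those most like Hbb-bs were Tiparp (0.945), Abhd5 (0.932), Gtdc1 (0.924), Nkain4 (0.924) and Focad (0.924). These values describe 12 libraries that share 2 stages and their depth, and they are not tested.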

How the data were processed

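RNA from microdissected mouse dorsal cortex was measured in 12 libraries, 3 in each of 4 groups, made from polyadenylated RNA with a directional kit, per the labels' protocols. Tools named in the submitters' processing notes were STAR 2.7.2b, RSEM 1.2.31 and cutadapt 3.4, with GRCm38 (mm10). Neither annotation release nor strand setting is given in the sources used here. The authors deposited, per the file headers, 3 measures used here: an expected count per gene, in which reads that fit several genes are shared out by estimate, the posterior SD of that count, and TPM. The blood content of the tissue pieces was not measured.

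Expected counts were rounded to whole numbers, filtered with filterByExpr, scaled by TMM and modelled in edgeR 4.0.16 (R 4.3.3) with quasi-likelihood, giving each of the 4 groups its own mean (8 residual degrees of freedom, common biological coefficient of variation 0.311). P-values were adjusted over all 16798 genes tested, and the SE is the absolute log2 change over the square root of F. Log2 ratios of embryonic to adult counts used an added 0.5 and exact permutation (Python 3.11.15, scipy 1.17.1). The fit and the permutation test were tested on simulated data. Symbols and coordinates came from the GENCODE annotation of GRCm38, which named 55141 of 55487 identifiers. Coding sequences were taken as the longest open reading frame of each gene's protein-coding transcripts. Figures were drawn with matplotlib 3.10.9.

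The members, the gene lists and the alternatives were chosen with earlier results of these data known. Named are the 8 members, Cdkn2c, the other globin genes, up to 4 genes of a list with the smallest p for stage in p18mKO2-, and the 5 genes most correlated with Hbb-y and with Hbb-bs; Gata1, Klf1, Hemgn, Rhag and Car1 were named after their values were seen, and 1 gene of the heme and iron list is not reported here. Alternatives were leaving out each library, RLE scaling, DESeq2 1.42.0, a replicate block, dropping the filter or raising it to a mean of 5 CPM, the libraries compared alone, other pseudocounts, TPM and other member sums. Chosen after the data were seen were the sums of the adult pairs and leaving out the 2 libraries with at least 50 CPM of both Xist and Y-linked transcripts.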

Additional observations from a re-analysis of the deposited data

How the results depend on the processing

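The stage change of Hbb-y and Hba-x kept its direction and its call in both p18 groups under all 19 alternatives, with Hbb-y at -6.91 to -5.58 in p18mKO2+ and -9.43 to -8.41 in p18mKO2- (log2). Replicate numbers were not taken to pair the libraries, because the correlation of same-numbered deviations exceeded 0.1 in all 3 pairs for no 2 groups. It exceeded 0.1 in 2 of 3 pairs for some groups, at most 0.283 between E16.5 p18mKO2- and E13.5 p18mKO2+. Differently numbered libraries were not compared, so pairing was neither shown nor excluded. With the replicate block the stage ratios were the same in size, -8.26 for beta and -5.14 for alpha, with an exact permutation p of 0.03125, the smallest that sign changes over 6 pairs allow, and an adjusted p of 0.0625. The block changed no count of called members. Over all genes tested, calls with the block went from 275 to 547 for stage in p18mKO2+ and from 5005 to 5526 in p18mKO2-. They went from 1810 to 2369 between the p18 groups at E13.5, stayed at 0 at E16.5, and went from 453 to 767 for the difference of the stage changes. The alpha difference between p18mKO2+ and p18mKO2- became -1.02 with Hba-a1 alone as adult gene, a value that rests on the estimated split within the pair. Members called between p18mKO2+ and p18mKO2- at E13.5 numbered 1 to 3 with libraries left out in turn, 1 without E13.5 p18mKO2+ replicate 1, and 3 with DESeq2 and with no filter, Hba-a1 being the third. Members called for the difference of the stage changes numbered 0 in the main test, 1 with DESeq2, 3 with no filter, 2 without the 2 libraries of both sexes, and 0 to 2 with libraries left out in turn; the cause was not tested.

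The values that changed sign were all uncalled. With libraries left out in turn, the log2 change in p18mKO2+ with stage ran from -0.16 to 0.35 for Hbb-bt, -0.30 to 0.0525 for Hba-a2 and -0.0201 to 0.316 for Hba-a1, and in p18mKO2- from -0.35 to 0.0578 for Hba-a2. At E13.5 between the p18 groups it ran from -0.20 to 0.38 for Hbb-bt and -0.31 to 0.52 for Alas2. At E16.5 it ran from -0.26 to 0.0805 for Hbb-bt, -0.13 to 0.97 for Hbb-y, -0.23 to 0.16 for Hbb-bs, -0.22 to 0.43 for Hba-x and -0.60 to 0.0984 for Alas2. For the difference of the stage changes it ran from -0.20 to 0.19 for Hba-a2, -0.81 to 0.0742 for Alas2 and -0.45 to 0.13 for Hbb-bt. Without the 2 libraries of both sexes, Hbb-bt with stage in p18mKO2+ stood at -0.35, Hba-x at E16.5 between the p18 groups at -0.22 and Hba-a2 for the difference of the stage changes at -0.29. At E16.5, 13 to 59 counts per library limit Hbb-y and Hba-x, and Hbb-bh1 cannot be followed there.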
